A study of Mus musculus with 6 samples.

Results

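The smooth muscle contractile genes that mark myofibroblasts were followed in mouse embryonic fibroblasts with and without Rap1. The set was a fixed list of 10 genes: Acta2, Tagln, Cnn1, Cnn2, Myl9, Tpm1, Tpm2, Actg2, Myh11 and Des. Genes were recognised on the arrays by the RefSeq accession of each probe. Of the 10 genes, 9 had a probe by this rule, with 14 probes in all, and 8 entered the comparison of knockout with wild type among 19657 features. Myl9 had no matched probe, and Des was left out because neither group had it well above background on all 3 arrays.

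RNA was hybridised to 6 one-colour Agilent arrays, 3 of wild-type cells and 3 of Rap1 knockout cells. Rap1, encoded by Terf2ip, is a telomere protein of the shelterin complex. The knockout allele lacks exon 3, which Cre recombinase removes. All 6 samples, wild type included, were fibroblasts that had been infected with SV40 large T antigen and with Cre and were grown with puromycin. Large T, which inactivates p53 and the retinoblastoma proteins, was thus shared by both groups. Exon 3 was targeted in 129Sv/Pas embryonic stem cells, which were injected into C57BL/6J blastocysts. The labels give no genotype beyond wild type and knockout. Whether the replicates are separate embryos or cultures is not stated either, and each p-value therefore reflects only how far these 6 arrays spread, which may be technical.

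Fibroblasts that become myofibroblasts assemble actin stress fibres and switch on genes otherwise typical of smooth muscle. Smooth muscle alpha-actin (Acta2) is built into these fibres, myosin pulls on them, and tropomyosins, calponins and transgelin bind along the filament and tune the pull. Many of these genes are driven by serum response factor (SRF), which binds the CArG box together with coactivators of the myocardin family. In muscle, TEAD factors bind a second element, MCAT. Cultured fibroblasts on stiff plastic commonly take on part of this programme.

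The promoters of the set show these elements, and the sequences below give the stretches that hold them, 5′ to 3′ on the strand of the gene, from RefSeq on build GRCm38.p6. A window from 250 bases before to 50 bases after the start was on hand for 7 of the 10 genes, and not for Tagln, Actg2 or Myh11. Capitals mark the element, and the CArG box was searched as its consensus or with 1 letter of its A and T core exchanged for G or C, which reads alike on both strands.
Myl9, chr2:156775293-156775322, plus strand: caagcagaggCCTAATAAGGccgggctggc
Myl9, chr2:156775355-156775384, plus strand: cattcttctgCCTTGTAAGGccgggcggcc
Cnn2, chr10:79988534-79988563, plus strand: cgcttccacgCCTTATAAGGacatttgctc
Acta2, chr19:34255438-34255467, minus strand: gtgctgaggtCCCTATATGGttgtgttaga
Acta2, chr19:34255388-34255417, minus strand: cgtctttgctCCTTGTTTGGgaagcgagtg
Cnn2 held a full box 56 bases upstream of its start. Myl9 held a full box 161 bases and an exchanged one 99 bases upstream. Acta2 held 2 boxes with 1 exchanged letter each, 84 and 34 bases upstream. Of all 32851 windows of this length, 535 (1.63%) held a full box and 3280 (9.98%) a full or exchanged one, against 2 and 3 of the 7 windows of the set.

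MCAT was searched as CATTCC on both strands and was found in the windows of Acta2 and Tpm1. It is shown because Acta2 had the lowest difference between knockout and wild type, and Tpm1 was the gene whose groups did not overlap. That choice rests on these same data, the 2 differences had opposite signs, and neither gene was called. A link between the element and either difference was not tested.
Acta2, chr19:34255502-34255531, minus strand: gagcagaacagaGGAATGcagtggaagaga
Tpm1, chr9:67049252-67049281, minus strand: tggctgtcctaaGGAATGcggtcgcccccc
The element lay 146 bases upstream in Acta2 and 56 bases upstream in Tpm1. Of all windows, 4817 (14.7%) held it, against 2 of the 7 windows of the set. A match of letters describes the window, and no binding was measured.

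Values below are log2 signals relative to the 75th percentile of their own array, so 0 is that percentile. Differences are knockout minus wild type. They describe 1 probe across arrays and do not rank genes by abundance. Each array had between 61.6% and 67.0% of its probes well above background, and the number of arrays limits the precision. Wild-type array 1 and knockout array 1 shared slide 1, and the other 4 arrays shared slide 2. Wild-type arrays 2 and 3 lay close to each other: the SD of their differences over all features was 0.25, against 0.83 to 1.25 for the 14 other pairs. They were kept as 2 samples, and averaging them is one of the alternatives.

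Terf2ip checked the labels. Wild-type arrays 1 to 3 gave −1.75, −1.65 and −1.81, and no knockout array had the probe well above background. The probe signal was lower by at least 37.7-fold in knockout (limma difference −6.63, SE 0.34, adjusted p = 0.00794). Its adjusted p ran from 0.0036 to 0.177 over 17 alternatives. Whether the probe lies in the removed exon was not examined, so the value describes the probe and not the whole transcript.

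None of the 8 contractile genes passed the test at an adjusted p of 0.05. Over all features, 0.0102% did so in limma with Benjamini-Hochberg adjustment, 2 of 19657. The number over all features moved with single arrays: it was 64 without wild-type array 1, 302 on slide 2 alone and 0 without wild-type array 2, wild-type array 3 or knockout array 1. None of the 8 genes passed at an unadjusted p of 0.05 either, where 10.3% of all features did. On slide 2 alone 3 of the 8 passed that unadjusted threshold, beside 4355 of all features. The knockout and wild-type arrays did not overlap for 1 gene, Tpm1, which is 12.5% of the 8. The background was 17.3% of features, made up of 11.4% with all knockout arrays higher and 5.89% with all lower. The median difference of the 8 genes was 0.24, with 6 above 0 and 2 below, beside 0.07 for all features. After quantile normalisation this median was 0.08, beside 0.05 for all features, with 4 genes above 0 and 4 below. With normexp added, and in the authors' value table, it was 0.01, beside 0.04 for all features, again with 4 above and 4 below. In bulk RNA, fewer cells of a type and less RNA per cell cannot be told apart.

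**Figure D1:**
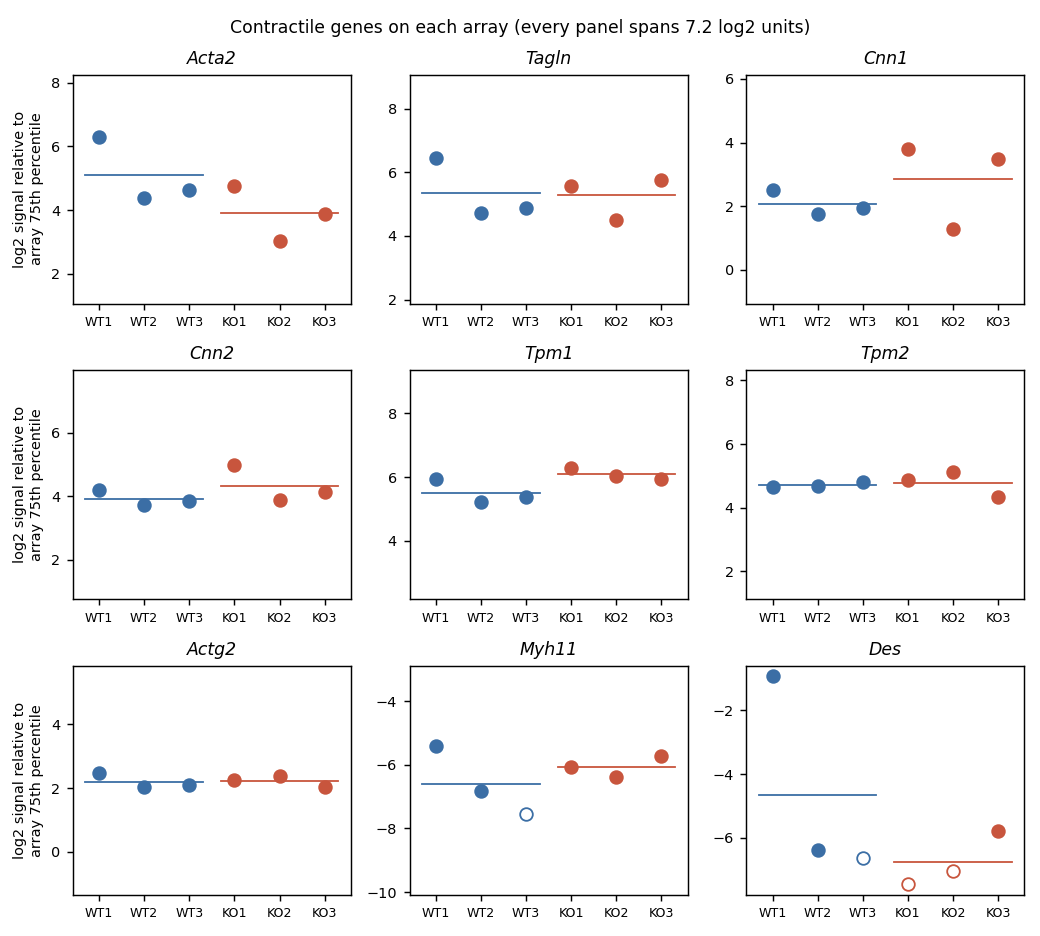
Log2 signal (y axis, scaled to the 75th percentile of each array) of the contractile genes on each of the 3 wild-type (WT) and 3 knockout (KO) arrays, 1 point per array. Acta2 and Tagln stand highest on wild-type array 1, at 6.28 and 6.44, Cnn1 on knockout array 1, at 3.80, and Tpm1 is the gene whose groups do not overlap.

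Acta2 encodes the actin that defines myofibroblasts. Its brightest probe, A_52_P420504, is printed 10 times on each array. It read 6.28, 4.38 and 4.64 on wild-type arrays 1 to 3 and 4.76, 3.04 and 3.89 on knockout arrays 1 to 3. Wild-type array 1 stood 2.87-fold above the next array, and knockout array 1 lay above the other 2 wild-type arrays, so the groups overlapped.

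The Acta2 mean was 5.10 ± 1.03 (SD, n = 3) in wild type and 3.90 ± 0.86 (SD, n = 3) in knockout. The difference was −1.20 (SE 0.63, 95% interval −2.71 to 0.30), which missed the limma threshold at an adjusted p of 0.509. Within slide 1 the difference was −1.52 and within slide 2 −1.05. It stayed below 0 in all 18 alternatives, from −1.64 to −0.61. Some of these, such as the slide and replicate blocks, leave the difference unchanged by design. The value nearest 0 came without wild-type array 1. Apart from the mean of probes, these alternatives all used the same brightest probe, so they do not show how the other probes behaved. The 10 Acta2 spots of an array had an SD of 0.04 to 0.05, while the 6 arrays spanned 9.47-fold.

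The other Acta2 probes did not all show the same order of arrays. A_52_P210078 read 2.67, −0.43 and −0.19 in wild type and −0.07, −1.58 and 0.03 in knockout, a difference of −1.23 (SE 0.88). It followed the first probe at r = 0.94 over the 6 arrays, and its wild-type array 1 stood 6.23-fold above the next. A_51_P450957 read 4.44, 3.65 and 3.78 in wild type and 4.39, 4.27 and 3.84 in knockout, with a difference of 0.21 (SE 0.30). That probe spanned 1.73-fold over the 6 arrays and followed the first at r = 0.32. Averaging the 3 probes gave a difference of −0.74, so both the sign and the size of the Acta2 difference depended on the probe. Probe positions within the transcript were not used here, and whether the probes read other actins was not tested.

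**Figure D2:**
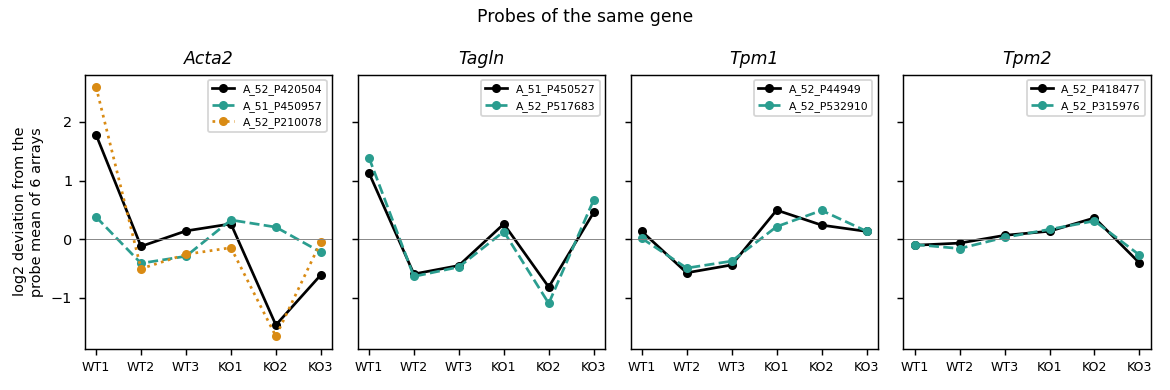
Deviation of each probe from its own mean over the 6 arrays (y axis, log2) for the 4 genes with several probes, by array (x axis, WT wild type, KO knockout). The probes of Tagln, Tpm1 and Tpm2 run together, while the Acta2 probe A_51_P450957 spans less and lies above its own mean on knockout array 2, where the other Acta2 probes are lowest.

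Actg2, the gamma-actin of enteric smooth muscle, varied little. It read 2.47, 2.02 and 2.10 in wild type and 2.24, 2.37 and 2.05 in knockout. The groups overlapped fully and the difference was 0.02 (SE 0.24, 95% interval −0.54 to 0.58, adjusted p = 0.975 in limma). Changes in Actg2 of 1 or more on the log2 scale thus lay outside the interval.

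Tagln encodes transgelin, a small actin-binding protein that is an early marker of smooth muscle. It read 6.44, 4.72 and 4.86 in wild type and 5.57, 4.50 and 5.77 in knockout. Wild-type array 1 was 3.14-fold above the mean of the other wild-type arrays, and knockout arrays 1 and 3 lay above those same arrays. The group means were 5.34 ± 0.96 and 5.28 ± 0.69 (SD, n = 3 each), a difference of −0.06 (SE 0.56, 95% interval −1.40 to 1.27, adjusted p = 0.967 in limma). The slides pointed opposite ways, with −0.87 on slide 1 and 0.34 on slide 2. The second Tagln probe, A_52_P517683, followed the first at r = 0.99 and gave −0.19.

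Cnn1, calponin 1, binds actin and slows the myosin motor in differentiated smooth muscle. It read 2.51, 1.75 and 1.95 in wild type and 3.80, 1.27 and 3.49 in knockout. Knockout arrays 1 and 3 lay above every wild-type array and knockout array 2 below every one, a range of 5.76-fold within the knockout group. The means were 2.07 ± 0.39 and 2.85 ± 1.38 (SD, n = 3 each). The difference of 0.78 (SE 0.67, 95% interval −0.81 to 2.38) had an adjusted p of 0.620 in limma. Without knockout array 2 it was 1.57, the highest of the 18 alternatives, which were all above 0.

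Cnn2, calponin 2, is the calponin of many cells that are not muscle and sits on stress fibres. It read 4.19, 3.74 and 3.84 in wild type and 4.99, 3.88 and 4.12 in knockout, so knockout array 1 was highest and the groups overlapped. The difference was 0.41 (SE 0.34, 95% interval −0.41 to 1.22, adjusted p = 0.612 in limma). Cnn1 and Cnn2 moved together over the arrays at r = 0.82, as did Cnn2 and Tpm1 at 0.77.

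Tpm1, alpha-tropomyosin, winds along the actin filament and sets the access of myosin. It read 5.93, 5.23 and 5.36 in wild type and 6.30, 6.04 and 5.94 in knockout. It was the gene with no overlap between groups, but the lowest knockout array lay above the highest wild-type array by only 0.00065. The second probe, A_52_P532910, read 4.88, 4.37 and 4.49 against 5.08, 5.35 and 5.00, with a gap of 0.12.

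The Tpm1 means were 5.51 ± 0.37 and 6.09 ± 0.19 (SD, n = 3 each). The difference was 0.58 (SE 0.27, 95% interval −0.06 to 1.23, adjusted p = 0.497 in limma), and 0.56 (SE 0.24) for the second probe. It ran from 0.38 to 0.80 over the 18 alternatives. After quantile normalisation, with or without normexp, and in the authors' value table the Tpm1 groups overlapped.

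Tpm2, beta-tropomyosin, pairs with Tpm1 in muscle filaments. It read 4.64, 4.68 and 4.81 in wild type and 4.88, 5.11 and 4.34 in knockout. Knockout array 3 was lowest and knockout array 2 highest, so the wild-type arrays lay inside the knockout range. The difference was 0.07 (SE 0.27, 95% interval −0.57 to 0.70, adjusted p = 0.923 in limma), and its second probe gave 0.14 at r = 0.96 with the first.

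Myh11 encodes the myosin heavy chain of mature smooth muscle, the motor itself. It read −5.42, −6.81 and −7.55 in wild type and −6.06, −6.40 and −5.71 in knockout, close to background, and was not well above background on wild-type array 3. The difference of 0.54 (SE 0.54, 95% interval −0.76 to 1.83) had an adjusted p of 0.664 in limma. It was −0.64 on slide 1 and 1.13 on slide 2, and 0.06 to 1.13 over 17 alternatives. Myl9, the regulatory light chain that Mylk phosphorylates to start contraction, has no value here.

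**Figure D3:**
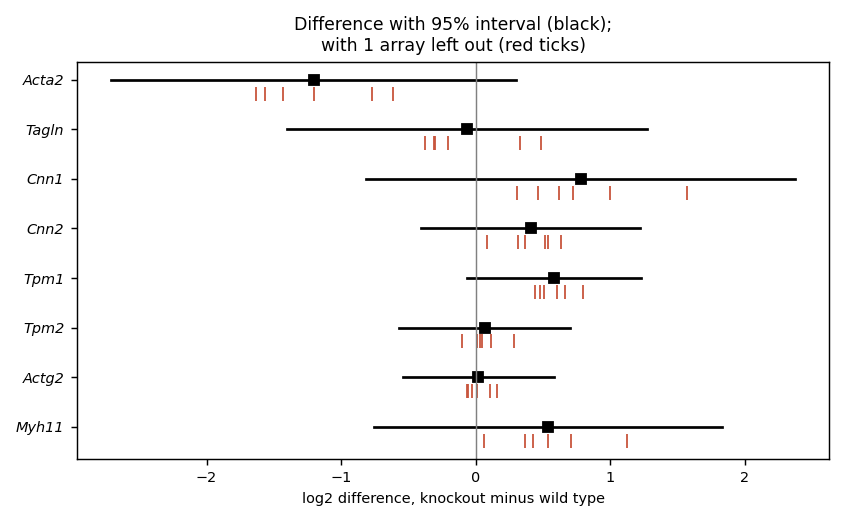
Log2 difference, knockout minus wild type (x axis), of the 8 contractile genes compared, with the 95% interval from limma as bars. Every bar crosses 0, and Acta2 is lowest at −1.20 and Cnn1 highest at 0.78.

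Des encodes desmin, the intermediate filament of muscle, and it was bright on a single array. Its probe, A_51_P335969, is printed 10 times and read −0.93, −6.38 and −6.65 in wild type and −7.45, −7.04 and −5.80 in knockout. Wild-type array 1 was 29.3-fold above the next array, knockout array 3.

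The median Des spot was 32.3 times its local background on wild-type array 1 and 1.04 to 1.95 times elsewhere. All 10 spots were well above background on wild-type arrays 1 and 2 and knockout array 3, against 1 of 9 on wild-type array 3, 0 of 10 on knockout array 1 and 2 of 9 on knockout array 2. The spots of wild-type array 1 had an SD of 0.05, while those of the other arrays had SDs of 0.23 to 0.42. Des was not well above background on all arrays of either group, so no difference was fitted. The 1 bright array cannot stand for wild type.

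**Figure D4:**
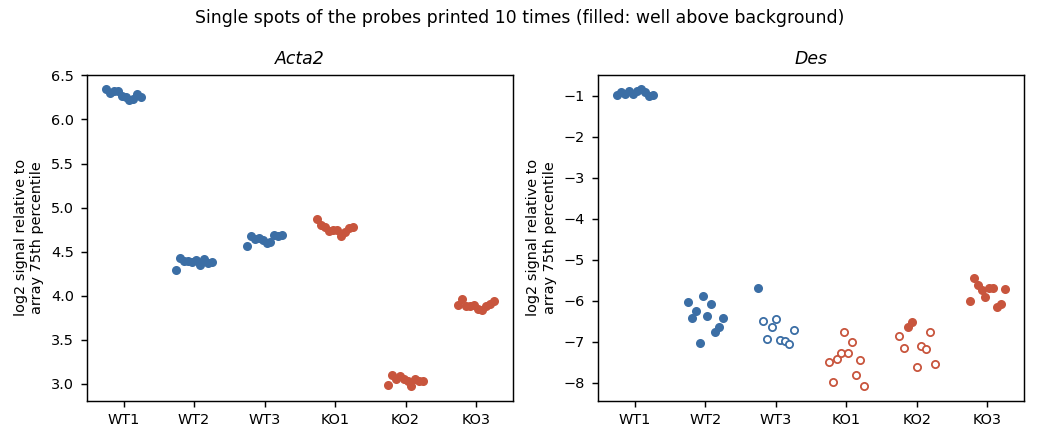
Log2 signal (y axis, scaled to the 75th percentile of each array) of each single spot of the Acta2 and Des probes that are printed 10 times, by array (WT wild type, KO knockout). Filled points are well above background. The spots of 1 array lie close together for Acta2, and for Des only wild-type array 1, at −0.93, stands clear of the rest.

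The genes of the set did not move as 1 block over the arrays. Wild-type array 1 was highest for 4 of the 8 genes compared (Acta2, Tagln, Actg2 and Myh11) and lowest for none. Knockout array 1 was highest for 3 (Cnn1, Cnn2 and Tpm1), and knockout array 2 for Tpm2. Wild-type array 2 was lowest for 3 genes, and knockout array 2 for 3 others. Acta2 and Tagln correlated at r = 0.75 and Tagln and Myh11 at 0.79, while Tagln and Tpm2 gave −0.57 and Acta2 and Tpm1 −0.03. Each of these values rests on 6 arrays, among them the near-alike wild-type pair, and they describe these arrays only.

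**Figure D5:**
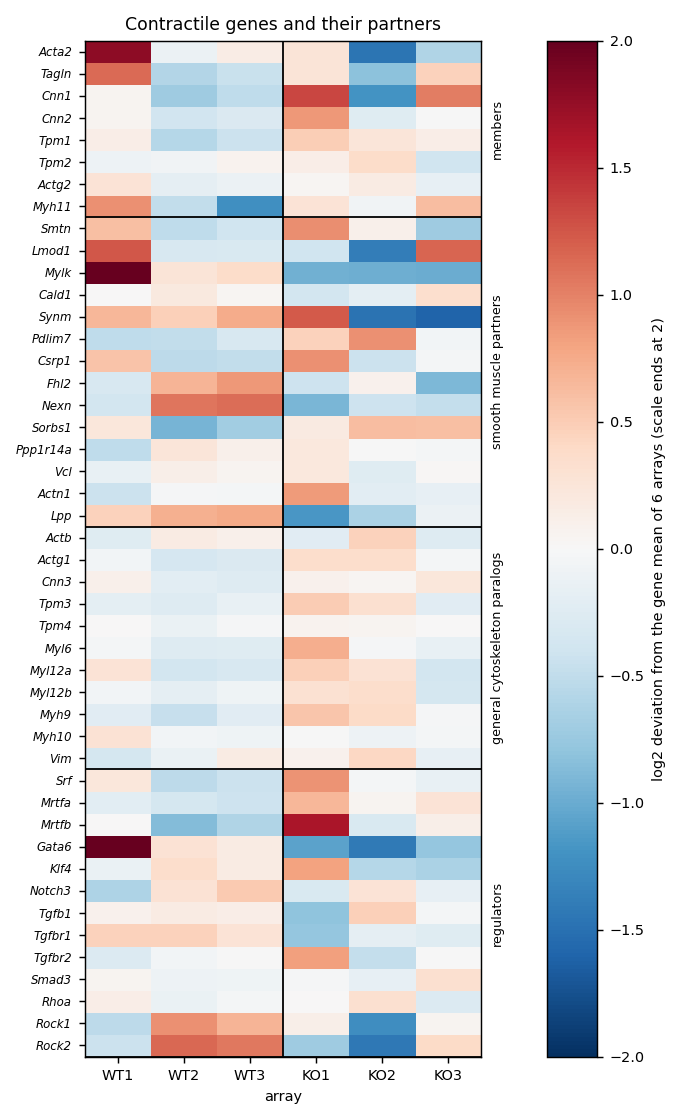
Deviation of each gene from its own mean over the 6 arrays (log2, colour, scale ending at 2 in either direction) by array (WT wild type, KO knockout). Rows are the 8 contractile genes, then the listed smooth muscle partners, cytoskeletal relatives and regulators that were compared. Wild-type array 1 is high for Acta2 and Tagln, knockout array 1 for Cnn1 and Cnn2, and wild-type arrays 2 and 3 look alike.

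Likeness to Acta2 was taken from its brightest probe alone, A_52_P420504, which the Acta2 probe A_51_P450957 followed only at r = 0.32. Over the 6 arrays, the 5 closest of 11856 named genes were Trim24 (r = 0.994), Ptprb (0.994), Pparg (0.991), Acta1 (0.991) and Aoc3 (0.990). Acta1 is the actin of skeletal muscle, and Actc1, that of heart muscle, came sixth in order at 0.974. The profiles differed in size: the difference, knockout minus wild type, was −0.16 for Trim24 and −3.50 for Ptprb. On knockout array 2, Ptprb read −8.54 and Aoc3 −7.16, below the lowest signal well above background on that array, −6.86. The Ptprb difference, and the likeness of both genes to Acta2, thus rest in part on background values. With wild-type arrays 2 and 3 averaged the same 5 genes led, and with quantile normalisation 3 of the 5 did, with Trim24 at rank 17 and Aoc3 at rank 6.

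Partners of the contractile genes were taken from a list of 20 smooth muscle genes, of which 14 were compared. None passed, 5 had an unadjusted p under 0.05, and 6 lay above 0 and 8 below, with a median of −0.09. The groups did not overlap for 4 of the 14, with the knockout higher in 1 and lower in 3, beside the shares of all features given above (11.4% higher, 5.89% lower, and 10.3% at an unadjusted p under 0.05). Synpo2, Tgfb1i1, Ppp1r12b and Flna had no matched probe, Kcnmb1 was well above background on no array, and Pdlim3 was too dim to be compared.

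Lpp, a LIM protein of focal adhesions and stress fibres, read 2.64, 2.89 and 2.95 in wild type and 1.02, 1.54 and 2.06 in knockout. The groups did not overlap, and the difference was −1.28 (SE 0.31, adjusted p = 0.364 in limma). Mylk, the kinase that activates myosin light chains, read 1.72, −0.35 and −0.24 in wild type and −1.57, −1.58 and −1.60 in knockout. Its difference was −1.96 (SE 0.56, adjusted p = 0.450 in limma), with −3.28 on slide 1, −1.29 on slide 2 and −1.29 without wild-type array 1. Pdlim7, a PDZ and LIM protein of stress fibres, read 0.35, 0.36 and 0.54 in wild type and 1.31, 1.77 and 0.81 in knockout, a difference of 0.88 (SE 0.30, adjusted p = 0.474 in limma). Lpp and Mylk thus lay lower, and Pdlim7 higher, on every knockout array than on any wild-type array, with none called.

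The 11 cytoskeletal relatives found in most cells were all compared, and none passed. Of these, 9 lay above 0 and 2 below, and their median was 0.24. An unadjusted limma p under 0.05 was found for 1, beside 10.3% of all features. The median of these 11 was 0.06 after quantile normalisation, 0.07 with normexp, 0.08 in the authors' value table and 0.11 without knockout array 1. The smallest p-values belonged to Myh9, the non-muscle myosin II heavy chain (0.60, SE 0.24, adjusted p = 0.486), Actg1, cytoplasmic gamma-actin (0.45, SE 0.23, 0.506) and Tpm3, a cytoskeletal tropomyosin (0.40, SE 0.26, 0.544), all by limma. Without knockout array 1 the Tpm3 difference was 0.25.

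Of 16 regulators of the programme, 13 were compared and none passed, with 6 above 0 and 7 below. An unadjusted limma p under 0.05 was found for 3, beside 10.3% of all features. The knockout arrays all read higher for 1 (Mrtfa) and all lower for 2 (Gata6 and Tgfbr1), beside 11.4% and 5.89% of all features. Gata6, a transcription factor of vascular smooth muscle, read 3.78, 1.27 and 1.15 in wild type and −0.09, −0.43 and 0.20 in knockout. All its knockout arrays were lower, and the difference was −2.17 (SE 0.70, adjusted p = 0.474 in limma), with −3.86 on slide 1 and −1.33 on slide 2. Without wild-type array 1 it was −1.32, and the other Gata6 probes gave −2.08 and −1.09 on all arrays. Tgfbr1, the type I TGF-beta receptor, differed by −0.80 (SE 0.25, adjusted p = 0.471) and Mrtfa, the actin-regulated coactivator of SRF, by 0.65 (SE 0.24, adjusted p = 0.480). Myocd, the muscle-restricted coactivator, was well above background on knockout array 1 alone, by 1 of its 2 probes.

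Among 8 growth-response targets of SRF, 7 were compared and none passed, with 3 above 0 and 4 below and a median of −0.05. Fosb differed by −0.64 (SE 0.26, adjusted p = 0.486 in limma) and had the 1 unadjusted p under 0.05, beside 10.3% of all features. Srf itself read 2.62, 1.87 and 1.96 in wild type and 3.29, 2.35 and 2.24 in knockout, a difference of 0.48 (SE 0.37, adjusted p = 0.589) that was 0.15 without knockout array 1. Junb differed by 0.18 (SE 0.44, adjusted p = 0.868).

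Markers of cell types were read beside these values, as sums of linear signals relative to the 75th percentile. The 12 fibroblast markers had a matched probe and were all well above background on every wild-type array, and 11 or 12 of them on the knockout arrays. Their sum was 610 to 667 in wild type and 329 to 572 in knockout. None of the 12 passed, but 9 had a negative difference. The middle of the 12 differences was −1.07, beside 0.07 for all features. Thy1 (−2.64), Pdgfra (−2.38) and Fn1 (−0.31) read lower on every knockout array than on any wild-type array, as did 5.89% of all features. No marker read higher on all of them. Leaving out knockout array 1 kept 8 differences negative and moved the middle value to −0.64. The array that was highest for Cnn1, Cnn2 and Tpm1, knockout array 1, read Dcn at −5.47 against 2.19 to 5.79 elsewhere and Thy1 at −2.22, and it had no Lum above background. Of the 12 markers, that array was lowest for 4, as was knockout array 3, and highest for 1, Pdgfrb, at 4.56. Col1a1 read 6.62 there, against 6.23 to 6.60 in wild type, and Col1a2 7.28, against 7.11 to 7.40. Its part in those values was not tested. Without knockout array 1 the difference was 0.31 for Cnn1, 0.08 for Cnn2 and 0.48 for Tpm1.

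The 8 smooth muscle markers, which share 5 genes with the contractile set, summed to 56.3 to 180.04 in wild type and 40.8 to 97.7 in knockout, and 6 to 8 of them were above background on an array. The 7 pericyte markers summed to 4.55 to 4.73 in wild type and 8.44 to 8.54 in knockout, with Abcc9 above background on no array. The brightest markers weigh most in such sums. Of the 4 pericyte markers compared, 2 lay above 0 (Mcam at 1.64 and Anpep at 0.92) and 2 below (Cspg4 and Notch3 at −0.13 each). The 6 epithelial markers summed to 2.09 to 3.11 and 4.04 to 13.0, and none was below background on all arrays. Of the 5 epithelial markers compared, 2 lay above 0 (Krt18 at 1.53 and Epcam at 0.86) and 3 below (Krt8 at −1.74, Krt14 at −0.09 and Krt5 at −0.07). Their part in the differences of the contractile genes was not tested.

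Of the 12 striated muscle markers, 11 had a probe, and Myod1, Myog, Myf5, Ckm and Myl1 were above background on no array. Their sum was 2.34 to 11.6 in wild type and 1.73 to 3.57 in knockout. The same held for Pecam1, Cdh5, Tie1 and Emcn of the 6 endothelial markers, which summed to 0.05 to 0.22 in wild type and 0.03 to 0.23 in knockout. It held too for Ptprc, Adgre1 and Tyrobp of the macrophage markers, of which 5 had a probe and which summed to 0.03 to 0.11 and 0.03 to 0.07. The highest striated sum was that of wild-type array 1, the array that was highest for Acta2, Tagln and Des, and its part in those values was not tested.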

How the data were processed

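Per the labels' protocols, total RNA was labelled with Cy3 and hybridised to 1 array per sample. Per the file headers, the deposited spot intensity was written by Agilent Feature Extraction 10.5.1.1, which had subtracted background and detrended each array. The authors' deposited value table holds log2 values, whose columns correlated at 0.99999 or more with normexp (offset 50) and quantile-normalised scanner signals (column medians 6.86 to 6.87). Its knockout columns 1, 2 and 3 held scanner files 2, 3 and 1. The submitters' processing notes name limma, and the authors' exact steps are not given in the sources used here.

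Control and outlier spots were left out, and log2 signals of a probe's spots were averaged and scaled to the array's 75th percentile. Probes were kept if every array of either group had them well above background (25520 of 41174), and a gene was its brightest kept probe. Of all probes, 23374 matched a RefSeq accession of a GRCm38.p6 table and 17800 did not. The files were built on mm8, so no array coordinates were used.

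limma 3.58.1 in R 4.3.3 (lmFit, eBayes, 2-sided, Benjamini-Hochberg, threshold 0.05) was fitted to all 19657 features and tested on simulated data. A group with no array above background has only a bound, from the brighter group's mean against the higher, per array, of the probe's own signal and the lowest one well above background. Members and lists were chosen with earlier results of these data known. Named were all members, of each list those past the threshold and the 3 of smallest p, markers above background on no array, the 5 genes most like Acta2, and Terf2ip. Dcn, Thy1, Lum, Pdgfra, Pdgfrb, Fn1, Col1a1, Col1a2, the epithelial markers, the pericyte markers compared, Actc1 and Pdlim3 were chosen after their values were seen. So were Tnnt2, Myl4, Tnnc1, Tnni1, Acta1 and Synm in the closing section. The main fit did not pair the arrays by replicate number.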

Additional observations from a re-analysis of the deposited data

How the results depend on the processing

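No contractile gene was called under any of the 18 alternatives, and the median of the 8 ran from 0.01 to 0.51. Of 432 values recomputed, 403 were scored as unchanged. For a single gene this meant the same direction and call, and for a count an equal or close one. Every count scored unchanged was in fact equal. The median of the 8 was scored unchanged if it moved by less than the pooled SD of the array medians, 0.29. Among the lists around the set, slide 2 alone called 1 gene, Synm (−2.15, adjusted p = 0.0428), where 302 of all features (1.54%) were called. With wild-type arrays 2 and 3 averaged, 691 features had an unadjusted p under 0.05, against 2019. Of the 5 genes most like Acta2, 3 stayed in the first 5 after quantile normalisation. Small differences turned sign, and the cause was not tested. Tagln was 0.043 with median scaling and 0.34 on slide 2 alone, and −0.37 to 0.49 leaving out each array in turn. Tpm2 was −0.14 after quantile normalisation, −0.10 after normexp, −0.10 in the value table and −0.020 on slide 2 alone, and −0.10 to 0.28 without single arrays. Actg2 was −0.080, −0.039 and −0.039 in the first 3 of these and −0.048 with wild-type arrays 2 and 3 averaged, and −0.067 to 0.16 without single arrays. Junb was −0.092, −0.019 and −0.019, and −0.27 to 0.50 without single arrays. Same-numbered arrays, by scanner file, did not deviate together (r = 0.01, 0.05 and −0.08). The value table orders the knockout files otherwise, so these values cannot settle whether arrays were paired. The replicate block called 0 contractile genes. Its median of 0.24 was fixed in advance, because blocks balanced over the groups, by slide or replicate, change only the error of a difference. The trend and robust fit likewise keeps each difference. Median scaling moved the median of all features to 0.17 and dropping the filter to −0.08. Terf2ip lost its call in 7 of 17 alternatives, with an adjusted p of 0.0626 with slide as a block and 0.177 with the replicate block. Signal over background limits Des and Myh11.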

Other observations

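Wild-type array 1, which read highest for Acta2, Tagln and Des, also read highest for 3 of the 6 striated muscle markers compared. Tnnt2, the troponin T of heart muscle, was 1.13 there and −2.66 on the next array, knockout array 2, a ratio of 13.8-fold. Actc1 was 2.85 there, 3.26-fold above the next array, and Acta1 was 0.86 there, 2.54-fold above the next. The myogenic factors Myod1, Myog and Myf5 were above background on no array, wild-type array 1 included. Of the other 3, Myl4 was highest on knockout array 1 (−1.24, against −2.23 on wild-type array 1), Tnnc1 on knockout array 3 and Tnni1 on knockout array 2. These values rest on a single array and were not tested.

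Mcam, an adhesion molecule of pericytes and vascular smooth muscle, read 0.35, 0.56 and 0.63 in wild type and 1.90, 2.08 and 2.49 in knockout. The difference was 1.64 (adjusted p = 0.159 in limma), and its second probe gave 1.64 as well. Krt18, a keratin of simple epithelia, read 1.58, 0.80 and 1.03 in wild type and 2.41, 3.67 and 1.91 in knockout. Both genes lay higher on all 3 knockout arrays than on any wild-type array, as did 11.4% of all features, and neither was called. They were picked after their values were seen, and the other markers of their lists went both ways. Of 4 pericyte markers compared, Anpep also lay above 0, at 0.92, while Cspg4 and Notch3 differed by −0.13 each. Of 5 epithelial ones, Epcam also lay above 0, at 0.86, while Krt8, Krt14 and Krt5 differed by −1.74, −0.09 and −0.07.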
